A study of Mus musculus with 4 samples.

Results

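The genes described here encode 9 exchange factors that activate the GTPase Rac: Kalrn (kalirin), Trio, Tiam1, Tiam2, Prex1, Prex2, Vav2, Vav3 and Arhgef7. They were picked by gene symbol from the 24100 genes of the count tables, with their levels in this experiment already in view, and all 9 were found. The values that were in view are those of immunopurified (IP) against Input libraries, so levels and folds of the 9 genes in that contrast are given as a description, without a test. The IP group was 3 libraries of ribosome-bound RNA captured with anti-EGFP antibodies from prefrontal cortex of untreated adult male Crh-IRES-Cre mice, and the Input group was 1 library from prefrontal cortex of the same line, sex and age class. Every library pooled 5 males. In this line the Crh locus, which encodes corticotropin-releasing hormone, drives Cre, and the labels do not give the origin of the EGFP tag or whether IP and Input libraries shared animals. Whether each IP library had its own animals is not stated in the labels. The p-values therefore reflect no more than the spread between these libraries, which may be technical.

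Rac is a small GTPase that drives branched actin assembly when it carries GTP, and exchange factors load it with GTP. In cortical neurons Rac signalling shapes dendrites, dendritic spines and synapses, and the exchange factors couple it to glutamate receptors, neurotrophin and Eph receptors, adhesion proteins and guidance receptors. GTPase-activating proteins oppose them, and the PAK kinases and the WAVE complex act downstream.

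Total counts were 10031072 to 23548375 in the IP libraries and 14474529 in the Input, and 14636 genes passed the filter on low counts, the 9 exchange factors among them. Levels are CPM, the counts of a gene scaled to a common library size with TMM factors. Of the 14636 genes, 0.458% passed an adjusted p of 0.05 in the quasi-likelihood test of edgeR between IP and Input. All 8 markers of Vip-class interneurons and of interneurons from the caudal ganglionic eminence lay above the Input, with summed levels of 4533 to 7264 CPM in the IP libraries and 123 CPM in the Input. Gad1, which makes GABA, had 980, 666 and 922 CPM in the 3 IP libraries, against 94.3 CPM in the Input. The 6 GABAergic markers summed to 3498 to 4464 CPM in the IP libraries and 766 CPM in the Input, with all 6 above it in all 3 IP libraries. Of 6 markers of Sst- and Pvalb-class interneurons, Sst and Kcnc1 alone lay above the Input in all 3 IP libraries, the sums were 1172 to 1547 CPM in the IP libraries and 858 CPM in the Input, and the median log2 fold was -0.084. The 8 markers of excitatory neurons summed to 716 to 1343 CPM in the IP libraries and 2394 CPM in the Input, with Slc17a7, a vesicular glutamate transporter gene, at 201, 403 and 214 CPM in IP 1, 2 and 3 and 633 CPM in the Input. Each IP library was below the Input for 5 of the 6 markers of astrocytes, with a median log2 fold of -1.14, while the sums of 1486 to 2599 CPM in the IP libraries and 2320 CPM in the Input were mostly Slc1a2 (1380, 2457 and 1546 CPM in IP 1, 2 and 3, against 2122 CPM in the Input). Oligodendrocyte markers summed to 318 to 499 CPM in the IP libraries and 683 CPM in the Input, with 1 of 6 above and 3 below in all 3 IP libraries. Markers of their precursors summed to 56.2 to 100.4 CPM in the IP libraries and 87.4 CPM in the Input, with 2 of 5 above and 3 below in all 3 IP libraries. The 6 endothelial markers summed to 122 to 445 CPM in the IP libraries and 30.6 CPM in the Input, and no endothelial marker was at 0. All 6 lay above the Input in all 3 IP libraries, with a median log2 fold of 3.02, and 0 passed the edgeR threshold. Microglial markers summed to 3.53 to 20.2 CPM in the IP libraries and 57.6 CPM in the Input, with Aif1, C1qa and Tmem119 at 0 in at least 1 IP library. The part of these cell types in the levels below was not tested, and in such bulk libraries fewer cells of a type and less RNA per cell cannot be told apart.

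Kalrn encodes kalirin, a large protein with spectrin-like repeats and a pair of exchange domains, whose isoform kalirin-7 sits at the postsynaptic density. It had 5029, 8279 and 14325 CPM in IP 1, 2 and 3, against 638 CPM in the Input. All 3 IP libraries were far above the Input, and they also differed among themselves, with IP 3 the highest and IP 1 the lowest. The mean in IP was 9211 ± 4718 CPM (SD, n = 3), 14.4 times the Input, with a fitted log2 fold of 3.85 ± 0.49 (SE). By raw counts this is 115373, 77426 and 166148 reads in the IP libraries and 10640 reads in the Input, so counting error is small for this gene. Among all genes of a library, Kalrn ranked 4th, 3rd and 1st in IP 1, 2 and 3 and 151st in the Input. It took 0.490% (95% Wilson interval 0.487% to 0.493%), 0.772% (0.766% to 0.777%) and 1.37% (1.36% to 1.37%) of the counts in the IP libraries and 0.0735% (0.0721% to 0.0749%) in the Input. These intervals, and the others below, cover counting error alone.

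The highest IP level of Kalrn was 2.85 times the lowest. Over the 2397 tested genes with an IP mean of at least 100 CPM the median of this ratio was 1.56, and 4.80% of them reached the ratio of Kalrn. IP 1, the library with the least Kalrn, had the most Crh (501, 174 and 193 CPM in IP 1, 2 and 3, against 1.32 CPM in the Input) and the most Vip (3802, 2253 and 2254 CPM in IP 1, 2 and 3, against 33.8 CPM in the Input). Most other markers of the same interneuron list were also highest in IP 1. In IP 1, 2 and 3 Calb2 had 179, 155 and 77.6 CPM and Htr3a 325, 239 and 189 CPM. Tac2 had 633, 572 and 514 CPM and Cxcl14 900, 528 and 481 CPM. Only Prox1 (352, 207 and 375 CPM in IP 1, 2 and 3, against 22.1 CPM in the Input) and Adarb2 (572, 406 and 659 CPM in IP 1, 2 and 3, against 29.3 CPM in the Input) were highest in IP 3, as Kalrn was. The part of the cell makeup of the libraries in the spread of Kalrn was not tested.

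Trio, the paralog of Kalrn with the same order of domains, had 442, 863 and 931 CPM in IP 1, 2 and 3, against 263 CPM in the Input. The IP libraries did not overlap the Input, and IP 1 stood nearest to it. The mean in IP was 745 ± 265 CPM (SD, n = 3), with a fitted log2 fold of 1.51 ± 0.45 (SE). Kalrn had 11.4, 9.59 and 15.4 counts for each count of Trio in IP 1, 2 and 3, against 2.43 in the Input. This ratio within a library does not depend on library scaling, and it was higher in each IP library than in the Input.

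Tiam1 encodes a Rac exchange factor that links NMDA and ephrin-B receptors to the actin of dendritic spines. It had 375, 291 and 321 CPM in IP 1, 2 and 3, against 66.6 CPM in the Input. The 3 IP libraries were close to each other and well above the Input. The mean in IP was 329 ± 42.4 CPM (SD, n = 3), 4.94 times the Input, with a fitted log2 fold of 2.30 ± 0.48 (SE). Its close relative Tiam2 had 10.2, 22.6 and 33.3 CPM in IP 1, 2 and 3, against 37.0 CPM in the Input. All IP libraries lay below the Input, IP 3 only slightly, and the fitted log2 fold was -0.75 ± 0.90 (SE), with -0.43 without IP 1 and -1.18 without IP 3. Tiam1 had 36.8, 12.9 and 9.63 counts for each count of Tiam2 in IP 1, 2 and 3, against 1.80 in the Input.

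**Figure D1:**
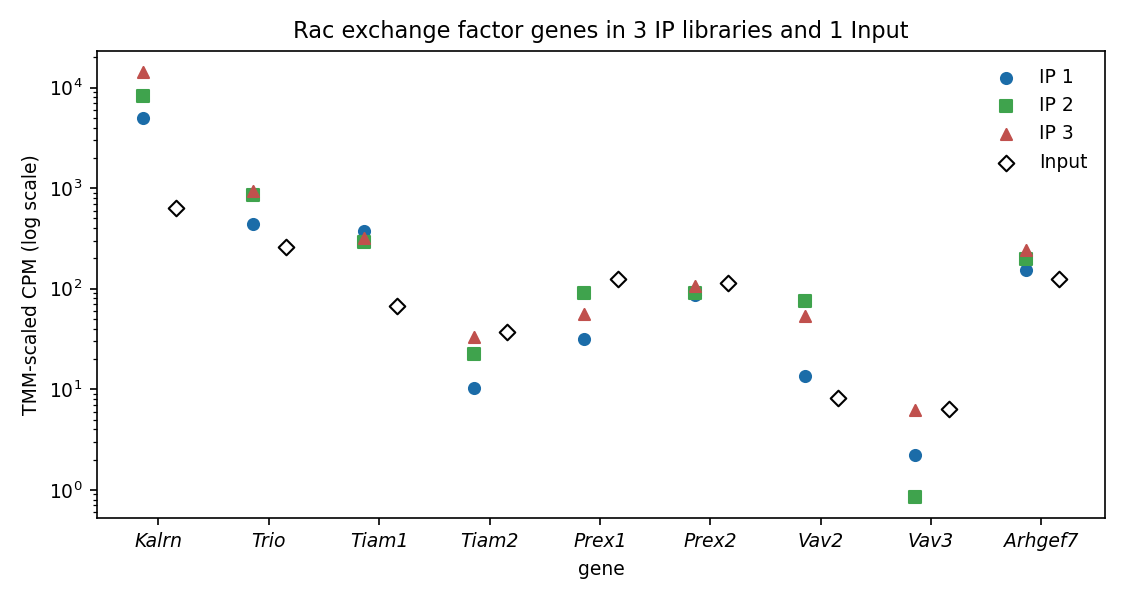
Level of each exchange factor gene (x axis) in TMM-scaled CPM on a log axis, with 1 point per IP library (filled) and the Input (open diamond). Kalrn reaches 5029 to 14325 CPM in the IP libraries and 638 CPM in the Input, while Prex1, Prex2, Tiam2 and Vav3 lie below the Input in all 3 IP libraries.

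Vav2 and Vav3 encode exchange factors that are switched on by tyrosine phosphorylation, for example downstream of Eph receptors. Vav2 had 13.6, 76.1 and 54.0 CPM in IP 1, 2 and 3, against 8.22 CPM in the Input. Each IP library was above the Input, but IP 1 stood far below the other IP libraries. The fitted log2 fold was 2.54 ± 1.05 (SE), and 2.96 ± 0.98 without IP 1. Vav3 had 2.22, 0.855 and 6.21 CPM in IP 1, 2 and 3, against 6.30 CPM in the Input. These rest on 51, 8 and 72 counts in the IP libraries and 105 counts in the Input, and the fitted log2 fold was -1.02 ± 1.79 (SE). It was -2.02 without IP 3 and -0.58 without IP 2.

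Prex1 and Prex2 encode exchange factors that respond to the lipid PIP3 together with G-protein beta-gamma subunits. Prex1 had 31.7, 89.9 and 56.1 CPM in IP 1, 2 and 3, against 124 CPM in the Input. The IP libraries all lay below the Input and spread over a range of 2.84 times, and the fitted log2 fold was -1.06 ± 0.62 (SE). Prex2 had 86.2, 91.5 and 105 CPM in IP 1, 2 and 3, against 113 CPM in the Input. Its IP libraries were close together just under the Input, with a fitted log2 fold of -0.26 ± 0.53 (SE).

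Arhgef7 encodes beta-PIX, which binds PAK kinases and the GIT scaffolds. It had 155, 196 and 244 CPM in IP 1, 2 and 3, against 126 CPM in the Input. All 3 IP libraries were above the Input, IP 1 by little, and the fitted log2 fold was 0.66 ± 0.48 (SE).

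In sum over the 9 genes, 5 lay above the Input in all 3 IP libraries (Kalrn, Trio, Tiam1, Vav2 and Arhgef7), beside 19.7% of all genes tested, and 4 lay below it in all 3 (Tiam2, Prex1, Prex2 and Vav3), beside 24.1% of all genes tested. The median fitted log2 fold was 0.66 for the 9 genes and 0.083 for all genes tested. Kalrn and Tiam1, 2 of the 9, were among the 0.458% of genes past the edgeR threshold of an adjusted p of 0.05 (higher in IP 0.41%, lower in IP 0.0478% of all genes). Since the set was put together with this contrast in view, nothing is read from these counts. Without IP 1, Trio was also past the threshold, with a log2 fold of 1.75, but 210 of all genes were then called in place of 67. Tiam1 was not past the threshold under limma-voom or when scaled by library totals or upper-quartile factors. These calls too are given as a description.

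**Figure D2:**
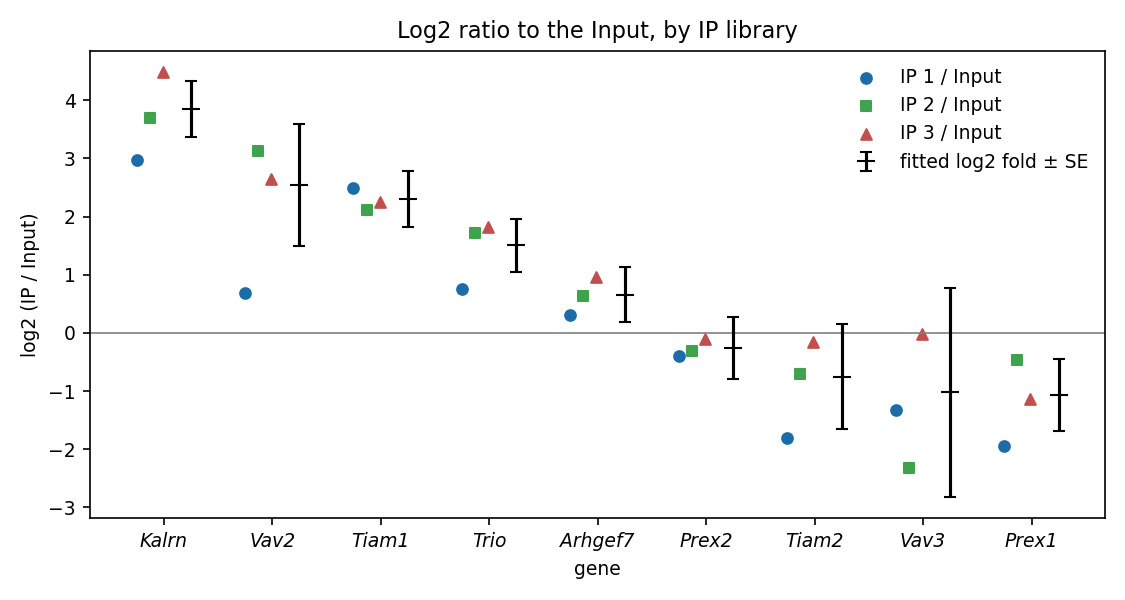
Log2 ratio of each IP library to the Input (points, with 0.5 CPM added to both) and the fitted log2 fold of the 3 IP libraries over the Input with its SE (black), for the 9 genes in order of the fitted fold. Kalrn is highest at 3.85 and Prex1 lowest at -1.06, and IP 1 is the lowest library for 7 of the 9 genes.

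IP 1 gave the lowest level of 7 of the 9 genes among the IP libraries, with Tiam1 and Vav3 as the exceptions, and IP 3 gave the highest level of 6. Tiam1 was the only one highest in IP 1. The libraries thus ranked alike for Kalrn, Trio, Tiam2, Prex2 and Arhgef7, whichever side of the Input a gene was on. The share of all genes with this order of libraries is not given here, so the order is not read as particular to these genes. Kalrn made up 81.8% (95% Wilson interval 81.6% to 82.0%), 83.5% (83.3% to 83.8%) and 89.1% (89.0% to 89.3%) of the counts of the 9 genes in IP 1, 2 and 3, against 46.2% (45.5% to 46.8%) in the Input.

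Levels were set beside each other per kb of exon, with the exons of all annotated transcripts of a gene joined (GENCODE M21, build GRCm38). In CPM per kb the IP means were 383 ± 196 for Kalrn, 32.7 ± 4.22 for Tiam1, 31.9 ± 11.3 for Trio and 12.6 ± 2.82 for Arhgef7 (SD, n = 3 each). The others followed, Vav2 at 6.93 ± 4.59, Prex1 at 5.77 ± 2.85, Prex2 at 5.68 ± 0.593, Tiam2 at 1.73 ± 0.907 and Vav3 at 0.515 ± 0.463 CPM per kb. Kalrn lay above Tiam1, Trio above Arhgef7 and Prex2 above Tiam2 in all 3 IP libraries without overlap. Tiam1 and Trio, Arhgef7 and Vav2, Vav2 and Prex1, Prex1 and Prex2, and Tiam2 and Vav3 overlapped when set across different IP libraries. Within each of the 3 IP libraries, however, Arhgef7 was above Vav2 and Tiam2 above Vav3, whereas the order of Tiam1 and Trio, of Vav2 and Prex1 and of Prex1 and Prex2 differed between the libraries. In the single Input, Kalrn was also first at 26.5 CPM per kb, followed by Prex1 at 12.1, Trio at 11.2, Arhgef7 at 7.98, Prex2 at 6.82 and Tiam1 at 6.62 CPM per kb. Tiam1 was thus 2nd of the 9 in IP and 6th in the Input, and Prex1 was 6th in IP and 2nd in the Input. With coding length in place of exon length Tiam1 was 4th in IP and 6th in the Input, and Prex1 was 7th in IP and 4th in the Input. Trio and Arhgef7 then overlapped. Per kb of coding length Trio had 47.5, 92.7 and 100 CPM and Arhgef7 66.1, 83.7 and 104 CPM in IP 1, 2 and 3.

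**Figure D3:**
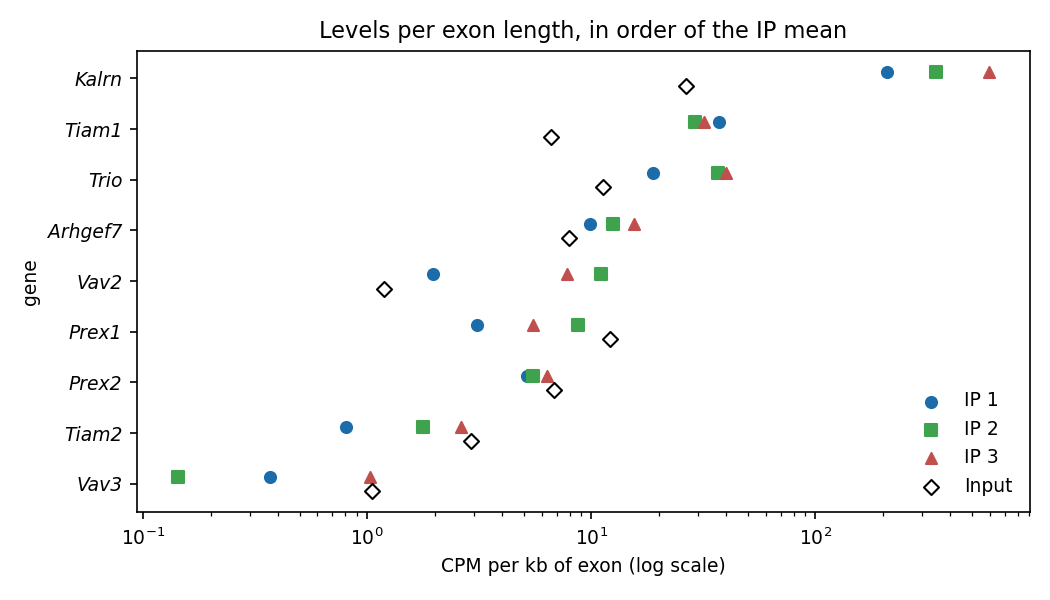
Level of each gene in CPM per kb of joined exon length (log axis), in order of the IP mean from the top, with 1 point per IP library (filled) above the Input (open diamond). Kalrn stands apart at 209 to 596 CPM per kb in the IP libraries, and neighbours such as Tiam1 and Trio overlap.

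The genes are long. Kalrn (Entrez 545156) spans 604 kb of chromosome 16, from 33969073 to 34573532 on the minus strand in GRCm38, with 24050 bp of joined exons, 60 exons in its longest coding transcript and 21 annotated transcripts. Tiam1 (Entrez 21844) lies on the same chromosome and strand, from 89787111 to 90143769, with 10048 bp of joined exons. Trio (Entrez 223435) lies on chromosome 15, from 27730651 to 28025848 on the minus strand, with 23395 bp of joined exons. The median span was 295 kb over the 9 genes and 25.2 kb over all genes tested. No member shares exon bases with another annotated gene apart from Tiam2, where 1.11% lie opposite an antisense gene. Counts were made per gene, so isoforms such as kalirin-7 cannot be told apart.

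RefSeq start windows (250 bases before to 50 after a start, build GRCm38.p6) were found for 8 of the 9 genes, all but Prex2. Those of Kalrn and Tiam1, first and second by mean level per kb in IP, and of Trio, the paralog of Kalrn, are shown, read 5′ to 3′ along the gene, with each GC box (GGGCGG on either strand, the element bound by Sp factors) in capitals. The Kalrn window is chr16:34513978-34514277, minus strand, the Tiam1 windows are chr16:89974650-89974949 and chr16:89818303-89818602, minus strand, and the Trio window is chr15:28025799-28026098, minus strand.
Kalrn: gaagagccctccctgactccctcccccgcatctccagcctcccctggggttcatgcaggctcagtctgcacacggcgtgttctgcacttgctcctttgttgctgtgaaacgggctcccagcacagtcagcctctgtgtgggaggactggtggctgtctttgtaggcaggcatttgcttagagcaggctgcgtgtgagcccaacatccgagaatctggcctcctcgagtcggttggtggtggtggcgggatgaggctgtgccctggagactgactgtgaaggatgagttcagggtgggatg
Tiam1, first start: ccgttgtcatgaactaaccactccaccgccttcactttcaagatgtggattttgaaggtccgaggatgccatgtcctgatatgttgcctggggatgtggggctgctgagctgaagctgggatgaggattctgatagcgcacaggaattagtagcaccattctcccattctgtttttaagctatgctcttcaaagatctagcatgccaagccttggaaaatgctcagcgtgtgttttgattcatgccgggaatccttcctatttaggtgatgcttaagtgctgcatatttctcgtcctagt
Tiam1, second start: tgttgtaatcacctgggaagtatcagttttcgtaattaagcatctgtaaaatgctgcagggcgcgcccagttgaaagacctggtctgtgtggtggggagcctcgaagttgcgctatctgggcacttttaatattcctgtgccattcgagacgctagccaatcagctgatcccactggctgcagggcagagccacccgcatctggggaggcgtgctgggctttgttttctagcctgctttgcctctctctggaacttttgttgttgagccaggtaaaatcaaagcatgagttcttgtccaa
Trio: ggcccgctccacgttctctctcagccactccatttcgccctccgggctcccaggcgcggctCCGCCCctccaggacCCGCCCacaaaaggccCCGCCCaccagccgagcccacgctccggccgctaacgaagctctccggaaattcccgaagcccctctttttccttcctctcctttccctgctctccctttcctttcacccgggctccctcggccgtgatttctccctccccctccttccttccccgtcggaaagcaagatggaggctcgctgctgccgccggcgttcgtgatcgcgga
The Kalrn and Tiam1 windows lie inside these genes, away from their annotated 5′ ends at 34573532 and 90143769, for which no window was found. The Trio window lies at its annotated 5′ end (28025848), so the windows of the 3 genes are not alike in position. A GC box was absent from the windows of Kalrn and Tiam1, and 3 were found in that of Trio. Of 32851 start windows of the same length in the table, 35.7% held at least 1. The dinucleotide CG occurred 9 times in the Kalrn window, 7 and 9 times in those of Tiam1 and 28 times in that of Trio, against a median of 7 over all windows. Prex1 had 10 boxes, overlaps included, and Vav2 had 1. Arhgef7 had 5, 1 and 0 in its windows, Vav3 had 6, 6 and 0, and Tiam2 had 0 in each. Of the 15 windows of the 8 genes, 7 held at least 1 box. These letter matches describe the windows and show no binding.

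The other genes of the pathway were taken from 11 lists, of which 150 genes passed the filter on low counts. By edgeR 1 of the 150 was higher and 0 were lower in IP, which is close to the 0.458% over all genes, and 7 were under an unadjusted p of 0.05, beside 4.43% of all genes tested. The 11 lists were chosen with earlier results of these data known, so calls within them are a description. The 1 call was Ppp1r9a, the gene of neurabin, an actin-binding scaffold of synapses whose relative spinophilin binds Tiam1. It rose to 1751, 2652 and 2195 CPM in IP 1, 2 and 3, against 562 CPM in the Input, a log2 fold of 1.97 ± 0.37 (SE, edgeR adjusted p = 0.0118), higher in 3 of 3 IP libraries. Limma-voom also called Ppp1r9a alone. DESeq2 called Ppp1r9a and Arhgap24, a gene for a Rac GTPase-activating protein named here because of that call, with 56.5, 58.7 and 48.8 CPM in IP 1, 2 and 3 and 4.20 CPM in the Input (log2 fold 3.70, edgeR adjusted p = 0.146).

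Among the Rac subfamily itself 0 of 4 genes were called. Rac1, the main Rac of neurons, had 802, 795 and 892 CPM in IP 1, 2 and 3, against 749 CPM in the Input (log2 fold 0.15 ± 0.34, SE). Rac1 was thus at nearly the same scaled level in both fractions, and the sign of its fold turned under other scalings. Rhog, a target of the first exchange domain of Kalrn and Trio, had 0.828, 8.02 and 0.172 CPM in the IP libraries and 9.83 CPM in the Input. Of other small GTPases, Cdc42 had 302, 430 and 250 CPM in IP 1, 2 and 3 and 298 CPM in the Input, and Rhob had 247, 119 and 172 CPM in IP 1, 2 and 3 and 120 CPM in the Input.

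Other exchange factors did not pass. The list of 13 tested Dbl-family genes assigned to Rac, which also holds Arhgef2 and Ngef, better known for acting on RhoA, had a median log2 fold of 0.39 and lay above the Input in all 3 IP libraries for 6 genes and below it for 3. Its most abundant genes were Rasgrf1, a calcium-responsive exchange factor for Ras and Rac, at 683, 930 and 862 CPM in IP 1, 2 and 3 and 542 CPM in the Input, and Rasgrf2 at 391, 557 and 307 CPM in IP 1, 2 and 3 and 319 CPM in the Input. The 27 tested factors for RhoA or Cdc42 had a median of 0.17, with Arhgef12 at 454, 823 and 569 CPM in IP 1, 2 and 3 and 420 CPM in the Input. The 14 DOCK and ELMO genes, a separate family of Rac and Cdc42 activators with their partners, had a median of 0.36. Among them Dock3 had 446, 478 and 508 CPM in IP 1, 2 and 3 and 311 CPM in the Input, and Elmo1 had 230, 294 and 226 CPM in IP 1, 2 and 3 and 267 CPM in the Input.

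The 18 genes of GTPase-activating proteins had a median log2 fold of 0.040, with Srgap3 at 943, 1197 and 1294 CPM in IP 1, 2 and 3 and 769 CPM in the Input, and Arhgap32 at 740, 1268 and 1114 CPM in IP 1, 2 and 3 and 1024 CPM in the Input. Of the GDP-dissociation inhibitors, which hold GTPases in the cytosol, Arhgdia had 129, 218 and 321 CPM in IP 1, 2 and 3 and 279 CPM in the Input, and Arhgdig had 24.7, 8.98 and 22.9 CPM in IP 1, 2 and 3 and 30.4 CPM in the Input. Downstream, the 13 genes of the PAK, LIMK and cofilin pathway had a median of -0.10. Pak1, the kinase that Rac activates in neurons, had 597, 604 and 700 CPM in IP 1, 2 and 3 and 995 CPM in the Input, below it in all 3, and Cfl1, the actin-severing cofilin, had 413, 334 and 317 CPM in IP 1, 2 and 3 and 443 CPM in the Input.

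The 12 genes of the WAVE complex and its adaptors had a median of -0.19, and Cyfip2, a subunit that binds Rac, had 1779, 2494 and 2313 CPM in IP 1, 2 and 3 and 2142 CPM in the Input, with Nckap1 at 934, 1032 and 846 CPM in IP 1, 2 and 3 and 1104 CPM in the Input. The 10 genes of the Arp2/3 complex, which nucleates branched actin, had a median of -0.40, with Actr2 at 327, 213 and 222 CPM in IP 1, 2 and 3 and 313 CPM in the Input, and Arpc2 at 216, 135 and 113 CPM in IP 1, 2 and 3 and 238 CPM in the Input. The 21 scaffolds and upstream partners had a median of 0.27, and besides Ppp1r9a the most abundant were the CaMKII genes, with Camk2a at 2590, 4976 and 4160 CPM in IP 1, 2 and 3 and 2902 CPM in the Input, and Camk2b at 423, 723 and 975 CPM in IP 1, 2 and 3 and 657 CPM in the Input. The pathway outside the 9 exchange factors thus held 40 genes above and 35 below the Input in all 3 IP libraries out of 150, beside 19.7% and 24.1% over all genes tested.

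**Figure D4:**
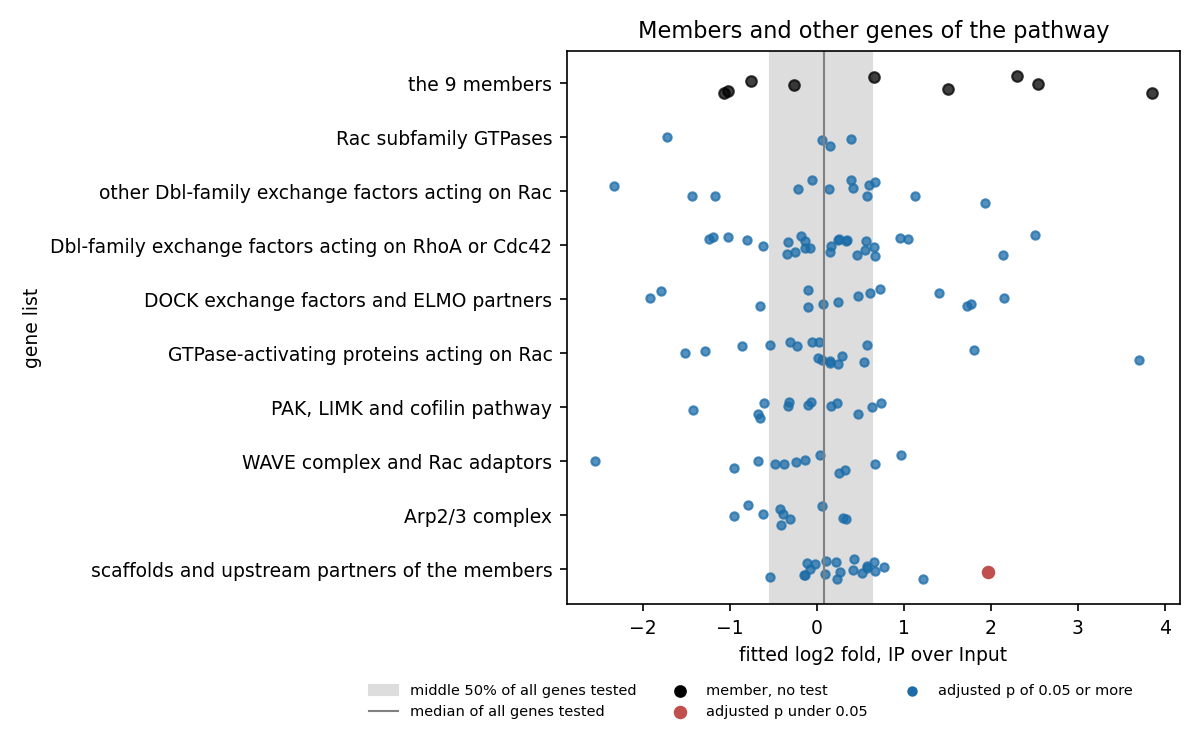
Fitted log2 fold of IP over Input for the 9 members (black) and for the tested genes of 9 of the 11 pathway lists (1 point per gene), with the middle 50% (grey band) and median (line) of all 14636 genes tested. The member at 3.85 is Kalrn, and Ppp1r9a in the scaffold list is the 1 list gene past the edgeR threshold.

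Genes with the pattern most like that of Kalrn were ranked by the Euclidean distance over the 4 libraries between log2(CPM + 0.5) values, each centred on its own mean, among 10552 other genes with a mean of at least 5 CPM. The nearest was Tnrc18, a chromatin protein gene, at a distance of 0.264, with 288, 565 and 943 CPM in IP 1, 2 and 3 and 34.5 CPM in the Input. Next were Dync1h1, the heavy chain of cytoplasmic dynein (0.701), Ubr3, a ubiquitin ligase gene (0.711), Cacng5, a gene for an AMPA receptor auxiliary subunit (0.723), and Pthlh, the gene of a parathyroid hormone-like peptide (0.781). Tiam1 was the nearest of the other exchange factors, at a distance of 1.75. Tiam1 ranked only 99th, with Kalrn itself counted as 1st, and Trio ranked 204th. Vav3 was not ranked because its mean was under 5 CPM.

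For Tiam1 the nearest genes were Gm5607, a gene model (0.138), Arl4c, a small GTPase gene (0.170), Igsf10, of the immunoglobulin superfamily (0.191), Rgs8, a regulator of G-protein signalling (0.195), and Gad2, which makes GABA (0.195). Gad2 had 1647, 1250 and 1623 CPM in IP 1, 2 and 3 and 289 CPM in the Input. Each of these 5 was closer to Tiam1 than Tnrc18 was to Kalrn.

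**Figure D5:**
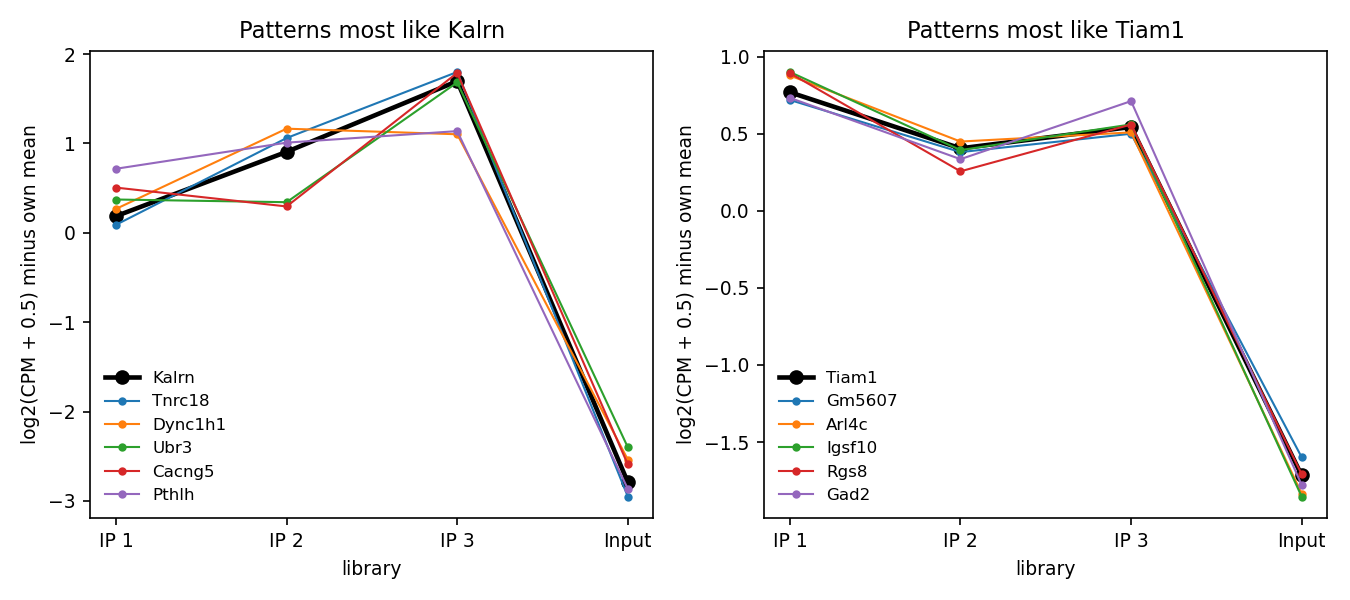
Level of Kalrn (left, black) and Tiam1 (right, black) and of the 5 genes with the most similar pattern to each, as log2(CPM + 0.5) minus the gene's own mean, in IP 1, 2 and 3 and the Input (x axis). Kalrn and Tnrc18 differ alike between the IP libraries at a distance of 0.264, whereas Tiam1 and its nearest genes are nearly level over them.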

How the data were processed

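Raw counts of reads per gene were deposited, 1 library per file, with an Entrez identifier and a symbol per gene, per the file headers. The submitters' processing notes name STAR 2.0.0e, HTSeq and mouse build mm10. The tables' names also hold the word subread, another counting program, so the counter is not settled, and annotation, strand setting and treatment of multiply mapped reads are not given in the sources used here. Of the 24100 genes 9 had an identifier but no symbol (at most 0.0221% of a library) and were kept. No library was a copy of another, with a chi-square per degree of freedom over genes of at least 75.4 for each pair.

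Counts were filtered with filterByExpr of edgeR 4.0.16 (minimum count 10) in R 4.3.3 and scaled with TMM factors of 0.974, 0.932 and 0.955 for IP 1, 2 and 3 and 1.15 for the Input. The quasi-likelihood F test of IP over Input was two-sided, with Benjamini-Hochberg adjustment over all 14636 genes and a threshold of 0.05, after a check on simulated counts. The simulated counts varied less between libraries than these data, so the check does not show how the test behaves here. With 1 Input, the spread is that of the IP libraries, with 2 degrees of freedom left. The lone Input is assumed to vary like them. The fit also borrows spread from all genes, with 17.0 prior degrees of freedom. The SE and p-value of a gene thus rest mostly on that shared spread. Tiam1 and Kalrn had SEs of 0.48 and 0.49, although the SD of their log2 ratios over the IP libraries was 0.18 and 0.76. The SE of a log2 fold is its size over the root of F. DESeq2 1.42.0 and limma 3.58.1 (limma-voom) were alternatives, beside scaling by library totals, RLE or upper-quartile factors, leaving the low counts in, keeping genes averaging 5 CPM or more, leaving out each IP library, coding length in place of exon length, and 0.25 or 1 in place of 0.5 CPM added before taking logs. One count was worth 0.0436, 0.107 and 0.0862 CPM in IP 1, 2 and 3 and 0.0600 CPM in the Input.

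The members, the 11 pathway lists, the marker lists and the rules for names were chosen with earlier results of these data known. Named were the 9 members, list genes past the threshold (up to 4 a list), up to 2 of the most abundant others of each list, and the 5 genes most like Kalrn and Tiam1. A few results that this rule would name are not reported here.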

Additional observations from a re-analysis of the deposited data

How the results depend on the processing

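No paired analysis was possible because the Input is a single library and shares no more than 1 replicate number with IP. The folds of the 9 exchange factors kept their sign under all 10 alternatives that gave a value, and Vav3 and Rhog had none where a mean of at least 5 CPM was required. The median log2 fold of all genes shifted by -0.27 under library totals, -0.22 under upper-quartile factors, -0.23 under limma-voom and -0.11 with no low-count filter, and relative to that median no member changed sign. With library totals and upper-quartile factors the log2 fold was 2.03 and 2.09 for Tiam1 and -0.54 and -0.48 for Prex2. Of the 9 genes 1 (Kalrn) was past the threshold under library totals, under limma-voom and under upper-quartile factors. With 1 IP library left out 2 to 3 of the 9 were, beside 90 to 210 of all genes. Of the pathway genes DESeq2 called 2, and 1 was called with each IP library left out.

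The count of all genes called, 67, was 108 without a low-count filter and 182 with DESeq2, and ran from 90 to 210 with 1 IP library left out (210 without IP 1, 105 without IP 2). Those higher, 60, were 94, 169 and 37 without a filter, with DESeq2 and with limma-voom, and 82 to 185 with 1 IP library left out. Those lower, 7, were 15 under library totals and also under upper-quartile factors, 14 without a filter and with limma-voom, 13 with DESeq2, and 8 to 25 (25 without IP 1) with 1 IP library left out. The causes were not tested.

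With coding in place of joined exon length, Arhgef7 ranked 2nd, Tiam1 4th, Prex2 5th, Vav2 6th and Prex1 7th in IP, and Arhgef7 2nd and Prex1 4th in the Input, whereas Kalrn stayed first in both.

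Of the pathway genes named, some with folds near 0 turned sign. With library totals and upper-quartile factors the log2 fold was -0.13 and -0.068 for Rac1, -0.14 and -0.087 for Cdc42, -0.26 and -0.20 for Arhgap32, -0.24 and -0.18 for Cyfip2 and -0.17 and -0.11 for Camk2b. With the filter at 5 CPM and under limma-voom it was -0.091 and -0.099 for Arhgap32, -0.078 and -0.038 for Cyfip2 and -0.0071 and -0.082 for Camk2b. Without IP 2 it was -0.11 for Cdc42, -0.15 for Arhgap32 and -0.068 for Cyfip2, and without IP 3 it was -0.030 for Arhgap32, -0.0045 for Cyfip2 and -0.20 for Camk2b. With 1 IP library left out the highest values were 0.29 for Cdc42 (without IP 3) and 0.20 for Arhgap32, 0.14 for Cyfip2 and 0.35 for Camk2b (all without IP 1). None of these genes was called under any alternative.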

Other observations

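The genes of the pathway lists named here were chosen after their values were seen, and the first pair stood out in 1 IP library. Rhoh, a GTPase gene known from blood cells, had 0.0436, 0.214 and 20.0 CPM in IP 1, 2 and 3 and 0.180 CPM in the Input, so its level came from IP 3. Arhgef6, which encodes alpha-PIX, the relative of the Arhgef7 product, had 99.4, 17.3 and 18.4 CPM in IP 1, 2 and 3 and 11.8 CPM in the Input. The IP libraries were closer together for the other pair. Racgap1, a GTPase-activating protein gene known from cell division, had 38.6, 36.6 and 28.5 CPM in IP 1, 2 and 3 and 9.89 CPM in the Input. Ngef had 53.7, 74.7 and 67.8 CPM in IP 1, 2 and 3 and 177 CPM in the Input.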
